A study of Mus musculus with 6 samples.

Results

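The 36 genes described here encode the folding, import and quality-control machinery of the endoplasmic reticulum (ER) and the sensors and transcription factors of the unfolded protein response. They were taken by name from a fixed list, and 36 of 36 were among the 14481 genes of the counts table. Polyadenylated RNA was sequenced from sorted wild-type mouse CD8+ T cells, cytotoxic lymphocytes that kill tumour and virus-infected targets. All cells were activated with interleukin 2 (0.1 µg/ml), anti-CD28 (1 µg/ml) and plate-coated anti-CD3 (1 µg/ml), and RNA was taken at day 3. From day 1, for 2 days, they were kept in conditioned medium (CM) of pSTAT3+ astrospheres (STAT3+ CM, 3 libraries) or of pSTAT3- astrospheres (STAT3- CM, 3 libraries), where pSTAT3 is STAT3, a transcription factor, in its phosphorylated form. Cells that received no CM were not analysed here, and the labels do not say whether replicates came from separate mice or cultures. The p-values therefore cover the spread among these 6 libraries, which may be technical.

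Proteins bound for the cell surface or for secretion enter the ER through the Sec61 channel, are folded by lumenal chaperones and disulfide isomerases, and are sent to the proteasome when folding fails. When unfolded proteins accumulate, the membrane sensors IRE1 (gene Ern1), ATF6 and PERK signal to the nucleus. IRE1 splices the mRNA of the transcription factor XBP1 into its active form, ATF6 is cut to release a transcription factor, and both induce chaperone and degradation genes. Activated T cells raise this machinery while they make cytokines, granzymes and receptors. The gene counts do not separate spliced from unspliced Xbp1 mRNA.

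Levels are given in CPM, the read count relative to the library's TMM-scaled size, and log2 fold changes are STAT3+ CM over STAT3- CM with the standard error (SE). Libraries held 43346089 to 53630514 counts. On the first principal component of all genes, STAT3- CM replicate 3 scored 39.6 and the other libraries -23.9 to 16.3. The second component set STAT3+ CM replicate 1 apart, at -38.1 against -19.2 to 17.5. The 10 CD8 T cell markers were all expressed and summed to 10151 to 11469 CPM in STAT3+ CM and 7204 to 9681 CPM in STAT3- CM, mostly Gzmb, the killing protease granzyme B. The other 9 summed to 3437 to 4258 CPM in STAT3+ CM and 3437 to 3552 CPM in STAT3- CM. These sums overlapped because STAT3+ CM replicate 3 was the lowest of the 6 libraries, while STAT3+ CM replicates 1 and 2 were the highest. All 10 log2 fold changes were positive (median 0.19), and 0 passed by edgeR or DESeq2. Cd247, Lck and Gzmb did not overlap between the media and were higher in STAT3+ CM, while the others overlapped. For B cells and plasma cells (which have an enlarged ER) the 4 markers analysed here summed to 316 to 355 CPM in STAT3+ CM and 286 to 332 CPM in STAT3- CM, nearly all of it Ighm. Dendritic cell and macrophage markers, 5 of 13 tested, summed to 50.0 to 59.7 CPM in STAT3+ CM and 82.0 to 116.6 CPM in STAT3- CM, mostly Cd74. The sums did not overlap, and 0 of 5 log2 fold changes were positive. H2-Aa, Cd74 and Zbtb46 did not overlap between the media, while Lyz2 and Cd68 did. By DESeq2 the adjusted p was 0.0044 for H2-Aa and 0.012 for Cd74, and by edgeR it was 0.533 and 0.563. With STAT3- CM replicate 3 left out, the edgeR adjusted p was 0.042 for H2-Aa, 0.034 for Cd74 and 0.819 for Zbtb46. Flt3, Clec9a, Xcr1, Siglech, Cd209a, Csf1r and Fcgr1 of that list, and Cd79a, Ms4a1, Pax5, Jchain, Tnfrsf17 and Mzb1 of the B and plasma cell list, were without a value here. The part of such cells in the values below was not tested, and in bulk RNA fewer cells of a type and less RNA per cell cannot be told apart. CD4 T cell markers summed to 12.9 to 18.3 CPM in STAT3+ CM and 9.92 to 24.0 CPM in STAT3- CM. NK cell markers, mostly Eomes, which activated CD8+ T cells also express, summed to 120.9 to 131.6 CPM in STAT3+ CM against 103 to 136 CPM in STAT3- CM, and the 2 astrocyte markers of 6 in the table to 8.64 to 15.8 CPM against 13.6 to 16.1 CPM.

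Levels per gene spanned a wide range, with Calr at the top and Ern1 at the bottom. Together the 36 genes took 0.786%, 0.878% and 0.860% of all counts in the STAT3+ CM libraries, against 0.866%, 0.874% and 0.705% in those of STAT3- CM. STAT3- CM replicate 3 was the lowest and STAT3+ CM replicate 1 the next. Per kb of transcript, the highest level over the 6 libraries was that of the calcium-binding lectin chaperone gene Calr, at 408 ± 68.4 CPM per kb (SD, n = 6), above the Hsp90 family chaperone gene Hsp90b1 at 279 ± 37.8. Next came the channel subunit gene Sec61b, at 265 ± 39.8 CPM per kb, and the disulfide isomerase gene Pdia3, at 242 ± 35.3. Hspa5, which encodes the master chaperone BiP, followed at 237 ± 50.8. Within each of the 6 libraries Hsp90b1 lay above Pdia3 and above Hspa5. The order of Sec61b and Hsp90b1, and that of Sec61b, Pdia3 and Hspa5, varied between libraries. At the other end stood the sensor genes Atf6, at 4.89 ± 0.778 CPM per kb, and Ern1, at 0.903 ± 0.207, with the BiP co-chaperone gene Dnajb9 at 4.99 ± 1.45. Xbp1, at 70.7 ± 11.7 CPM per kb, ranked 15 of 36. Calr stood at percentile 98.7 of all genes by level per kb and Ern1 at percentile 22.6.

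**Figure D1:**
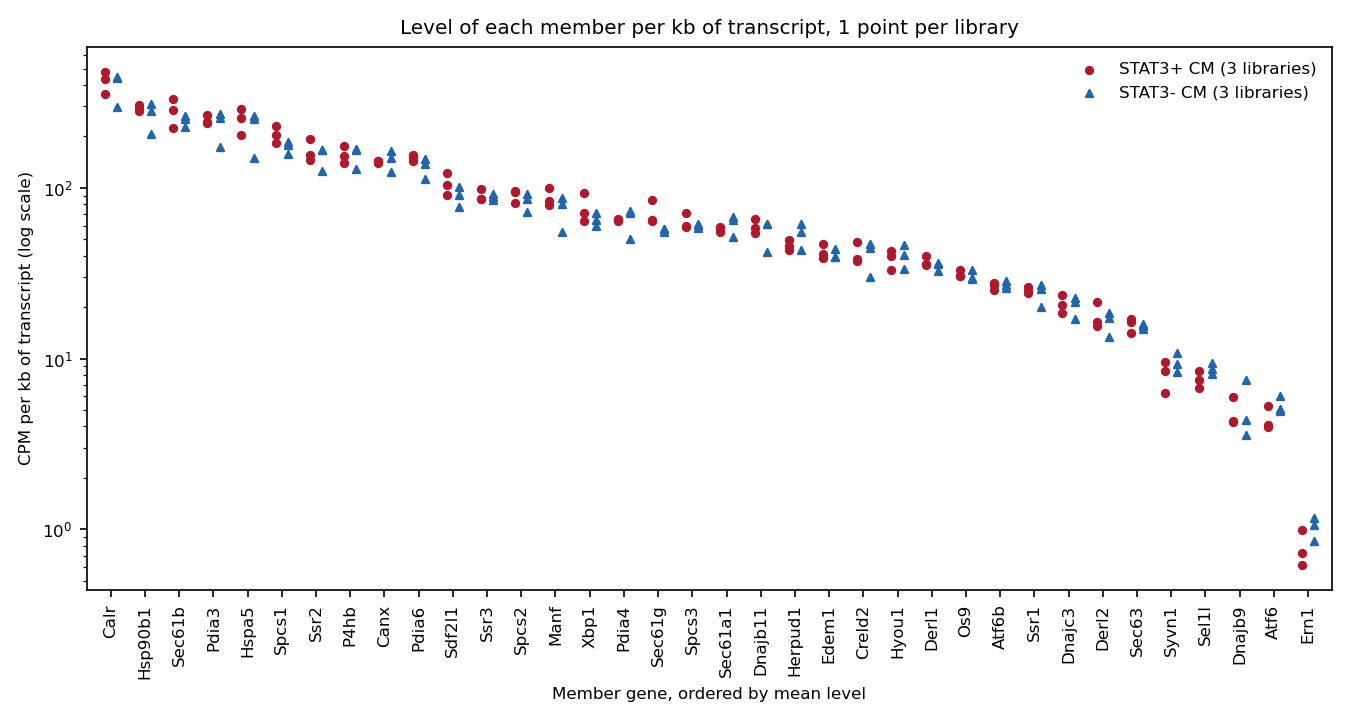
Level of each of the 36 genes in CPM per kb of transcript (log scale), 1 point per library, with STAT3+ CM as circles left of STAT3- CM as triangles. Genes are ordered by mean level; Calr, at 408 CPM per kb, is the highest and Ern1, at 0.903, the lowest, and the points of both media overlap in all but Sec61g.

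The comparison asks whether CD8+ T cells kept in the secreted products of pSTAT3+ astrospheres differ in this machinery from cells kept in those of pSTAT3- astrospheres. No member passed the test. By edgeR's quasi-likelihood test 0 of 36 members had an adjusted p under 0.05, as did 0 of the 14319 genes tested (0%); the members' adjusted p-values ran from 0.989 to 1.00. DESeq2 called 0 of 36 members and 48 of all genes (0.335%), and limma-voom 0 of all genes (0%). At an unadjusted p under 0.05 stood 1 member, Sec61g, and 521 of all genes (3.64%). The fold changes were small, from -0.39 for Ern1 to 0.33 for Sec61g, and 33 of 36 lay within 0.25 of 0 on the log2 scale. All 36 of the 95% intervals lay within 1 of 0 on that scale, with the lowest bound at -0.89 (Ern1) and the highest at 0.67 (Hspa5), so a 2-fold difference lay outside each interval. Of the 36 values 25 were positive, with a median of 0.047, where 50.2% of all genes tested were positive with a median of 0.00076; with library totals as the only scaling 18 of 36 were positive.

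**Figure D2:**
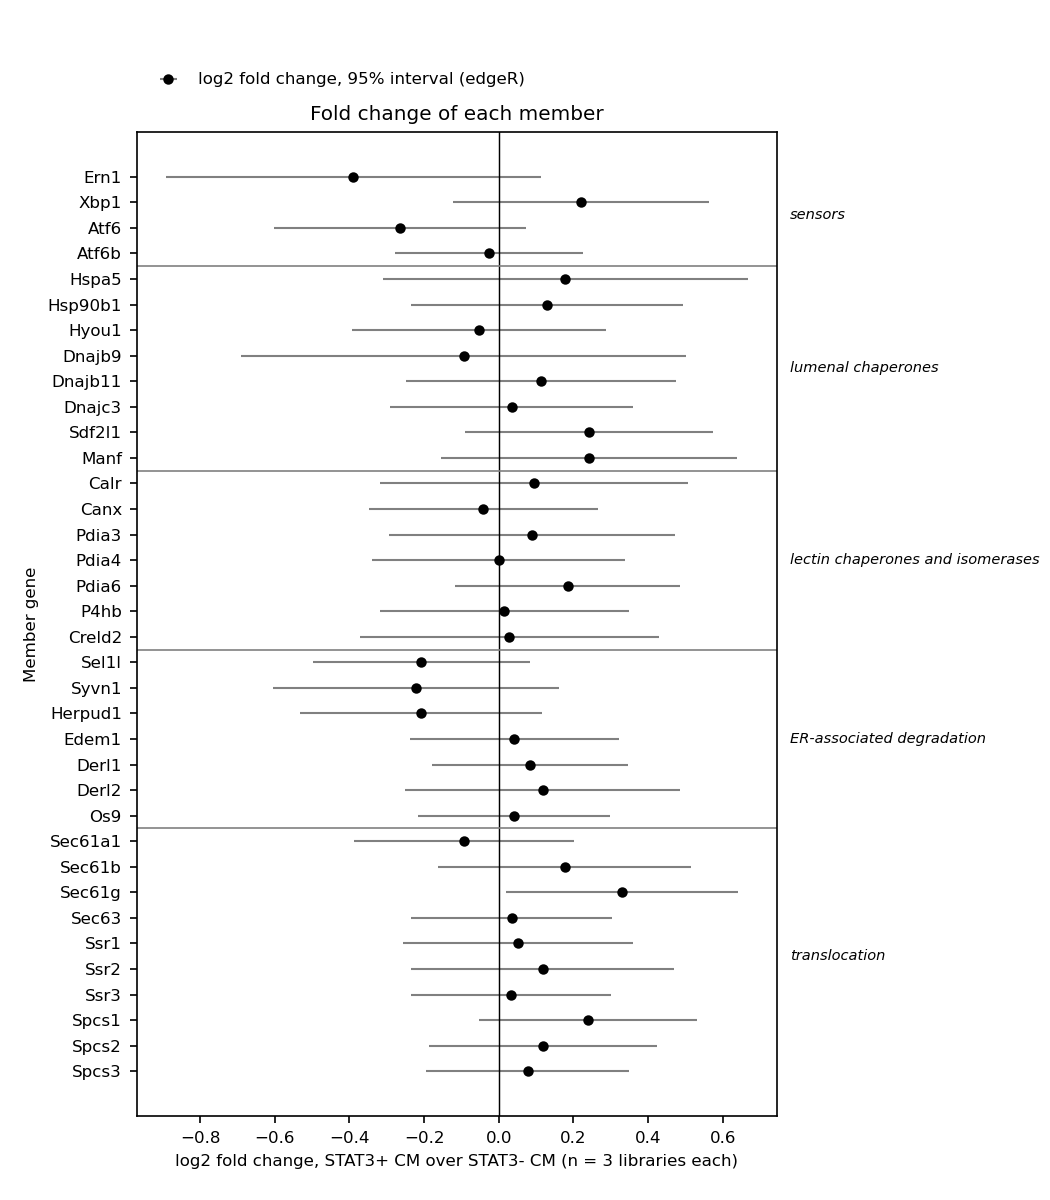
Log2 fold change of each member, STAT3+ CM over STAT3- CM (n = 3 libraries each), as points with 95% intervals from the edgeR fit, grouped by role. The interval includes 0 in 35 of 36 members and lies above 0 in Sec61g, whose adjusted p is 0.989.

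Among the sensors, the values of Ern1 and Atf6 were negative and that of Xbp1 positive. Ern1, the kinase and nuclease that splices Xbp1, had 5.07, 4.28 and 6.86 CPM in STAT3+ CM against 7.37, 5.96 and 8.08 CPM in STAT3- CM (log2 fold change -0.39, SE 0.23, 95% interval -0.89 to 0.11). All STAT3- CM libraries exceeded STAT3+ CM replicates 1 and 2, but STAT3+ CM replicate 3 exceeded STAT3- CM replicate 2. Atf6, the sensor that is cut in the Golgi, had 29.5, 28.8 and 38.2 CPM in STAT3+ CM against 43.8, 36.6 and 35.6 CPM in STAT3- CM (-0.27, SE 0.15). The same 2 STAT3+ CM libraries were the lowest, and replicate 3 again lay among the STAT3- CM libraries. Xbp1, the transcription factor that drives the secretory programme, had 198, 152 and 136 CPM in STAT3+ CM against 128, 152 and 137 CPM in STAT3- CM (0.22, SE 0.15). Only STAT3+ CM replicate 1 stood out. Atf6b, the close relative of Atf6, varied little, with 64.6, 70.6 and 68.8 CPM in STAT3+ CM and 72.6, 68.7 and 66.4 CPM in STAT3- CM (-0.03, SE 0.11).

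ATF6 and XBP1 are known to act through the ER stress response element (ERSE), together with the CCAAT-binding factor NF-Y. Of the 36 members 29 had an entry among RefSeq promoter windows of 300 bases (250 before to 50 after the gene's start, build GRCm38.p6, a different build from the GRCm39 named by the submitters). The windows were searched on both strands for the ERSE (CCAAT, then any 9 bases, then CCACG), for its variant ERSE-II (ATTGG, any 1 base, then CCACG) and for the XBP1 and ATF6 core element TGACGTGG. The letters CCACG are common to the 3 motifs, the last on its other strand, and no member held more than 1 kind. The ERSE was in the windows of 8 of 29 members and in 0.119% of all 32851 windows. ERSE-II was in 2 of 29 against 0.0365%, and TGACGTGG in 0 of 29 against 0.676%. Of the 10262 tested genes with a window, members included, 18 held the ERSE, 10 held ERSE-II and 106 held TGACGTGG. The members were listed for their part in ER folding and the unfolded protein response, where ATF6 and XBP1 induce such genes. Higher shares of the ERSE and ERSE-II among members could therefore follow from the choice of genes and are no separate result. The 10 members with a match are shown. Each match is read 5′ to 3′ on the strand of the match, with the fixed letters in capitals. Hsp90b1 held a pair, on opposite strands.
Hspa5 (chr2:34772025-34772043, plus strand): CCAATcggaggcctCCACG
Calr (chr8:84847075-84847093, plus strand): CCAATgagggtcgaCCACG
Hsp90b1 (chr10:86705638-86705656, minus strand): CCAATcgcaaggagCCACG
Hsp90b1 (chr10:86705533-86705551, plus strand): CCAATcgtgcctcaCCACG
Canx (chr11:50325800-50325818, minus strand): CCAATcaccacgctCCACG
Pdia6 (chr12:17266491-17266509, plus strand): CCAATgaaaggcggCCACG
Dnajc3 (chr14:118937827-118937845, plus strand): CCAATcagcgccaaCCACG
Creld2 (chr15:88819520-88819538, minus strand): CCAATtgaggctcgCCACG
Syvn1 (chr19:6046532-6046550, plus strand): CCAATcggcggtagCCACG
Herpud1 (chr8:94386377-94386387, plus strand): ATTGGgCCACG
Dnajb11 (chr16:22857852-22857862, plus strand): ATTGGcCCACG
The 8 genes with an ERSE were Hspa5, Hsp90b1, Calr, Canx, Pdia6, Dnajc3, Creld2 and Syvn1, most of them chaperone or isomerase genes. In Hspa5 the element began 65 bases before the gene's start, and in Herpud1 the ERSE-II began 52 bases before it. The whole windows of Hspa5 (chr2:34771840-34772139, plus strand) and Hsp90b1 (chr10:86705395-86705694, minus strand), the most abundant lumenal chaperone genes, read on the gene's strand with the fixed letters of the ERSE in capitals (the second Hsp90b1 match lies on the other strand and so reads here as its reverse complement):
Hspa5: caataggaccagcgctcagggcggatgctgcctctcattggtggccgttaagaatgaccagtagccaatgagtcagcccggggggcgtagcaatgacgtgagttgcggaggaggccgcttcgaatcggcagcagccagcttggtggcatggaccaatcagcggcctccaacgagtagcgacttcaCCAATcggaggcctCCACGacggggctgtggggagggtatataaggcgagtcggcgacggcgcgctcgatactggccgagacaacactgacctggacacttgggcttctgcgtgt
Hsp90b1: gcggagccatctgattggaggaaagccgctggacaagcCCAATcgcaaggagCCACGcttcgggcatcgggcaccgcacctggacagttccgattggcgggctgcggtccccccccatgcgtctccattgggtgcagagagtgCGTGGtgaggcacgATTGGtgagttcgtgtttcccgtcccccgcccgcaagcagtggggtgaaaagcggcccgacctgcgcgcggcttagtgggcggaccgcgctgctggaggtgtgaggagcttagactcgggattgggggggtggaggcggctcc

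The lumenal chaperones had log2 fold changes of -0.09 to 0.24, none past the test, and 7 of 8 were lowest in STAT3- CM replicate 3. Hspa5, which encodes BiP, the ATP-driven chaperone that also holds the sensors inactive, had 753, 1069 and 946 CPM in STAT3+ CM against 969, 927 and 550.4 CPM in STAT3- CM (log2 fold change 0.18, SE 0.22, 95% interval -0.31 to 0.67). Hsp90b1, the Hsp90-type chaperone of integrins and Toll-like receptors, had 797, 862 and 815 CPM in STAT3+ CM against 800.4, 879 and 582 CPM in STAT3- CM (0.13, SE 0.16). In both genes STAT3- CM replicate 3 lay below the other 5 libraries, and the remaining STAT3- CM libraries overlapped those of STAT3+ CM. Manf, a secreted ER stress factor, had 189, 225 and 178 CPM in STAT3+ CM against 182, 196 and 123 CPM in STAT3- CM (0.24, SE 0.18). Sdf2l1, a partner of the BiP cycle, had 116, 135 and 101 CPM in STAT3+ CM against 100.2, 112 and 85.5 CPM in STAT3- CM (0.24, SE 0.15). Sdf2l1 and Manf had the highest positive values of this group, and their libraries overlapped between the media. Hyou1, the nucleotide exchange factor of BiP, had 149, 178 and 192 CPM in STAT3+ CM against 208, 180.4 and 150.4 CPM in STAT3- CM (-0.05, SE 0.15). Dnajb9, a co-chaperone that represses IRE1, had 10.7, 14.6 and 10.4 CPM in STAT3+ CM against 18.4, 10.8 and 8.79 CPM in STAT3- CM (-0.09, SE 0.27). The high Dnajb9 value of STAT3- CM replicate 1 was not shared by the other 2 STAT3- CM libraries, and its SE was the largest of the 36. The co-chaperone genes Dnajb11 (0.11, SE 0.16) and Dnajc3 (0.03, SE 0.15) completed the group of 8, of which 6 had positive values.

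Lectin chaperones and disulfide isomerases had log2 fold changes of -0.04 to 0.18, none past the test, and 7 of 7 were lowest in STAT3- CM replicate 3. Calr, the soluble lectin chaperone, had 773, 1047 and 942 CPM in STAT3+ CM against 958, 981 and 649.8 CPM in STAT3- CM (0.09, SE 0.19). Canx, the membrane-bound relative of Calr, had 612, 598 and 612 CPM in STAT3+ CM against 643, 699 and 533 CPM in STAT3- CM (-0.04, SE 0.14). Pdia3, the isomerase that works with both lectins and in MHC class I loading, had 676, 735 and 661 CPM in STAT3+ CM against 709.8, 754 and 484 CPM in STAT3- CM (0.09, SE 0.17). Each gene had its lowest value in STAT3- CM replicate 3, and the STAT3+ CM libraries lay between that library and the top STAT3- CM library, except that Calr was highest in STAT3+ CM replicate 2. P4hb, the founding protein disulfide isomerase, had 401, 503 and 439 CPM in STAT3+ CM against 482, 476 and 371 CPM in STAT3- CM (0.02, SE 0.15). Pdia4 had 153, 155 and 157 CPM in STAT3+ CM against 172, 175 and 120.0 CPM in STAT3- CM, with means of 155 ± 2.10 and 155 ± 30.7 CPM (SD, n = 3 each). Pdia4, another disulfide isomerase, thus had nearly equal means and a wider spread in STAT3- CM. Pdia6, which also acts on IRE1, had 313, 341 and 331 CPM in STAT3+ CM against 301, 321 and 245 CPM in STAT3- CM (0.18, SE 0.14). Creld2, an ER stress-induced protein with isomerase activity, had 50.7, 66.0 and 52.2 CPM in STAT3+ CM against 64.2, 60.3 and 41.1 CPM in STAT3- CM (0.03, SE 0.18).

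The degradation arm held 3 negative values side by side, of the ubiquitin ligase Syvn1, its cofactor Sel1l and Herpud1. Herpud1, a membrane scaffold of that ligase, had 88.6, 96.5 and 84.8 CPM in STAT3+ CM against 119.6, 108 and 84.1 CPM in STAT3- CM (log2 fold change -0.21, SE 0.15). The STAT3+ CM libraries lay below STAT3- CM replicates 1 and 2 and above replicate 3. Syvn1 averaged 28.1 ± 5.67 CPM in STAT3+ CM and 32.8 ± 4.39 CPM in STAT3- CM (-0.22, SE 0.17), and Sel1l averaged 47.7 ± 5.59 CPM in STAT3+ CM and 55.1 ± 3.92 CPM in STAT3- CM (-0.21, SE 0.13; SD, n = 3 each). Both overlapped between the media. Edem1, Derl1, Derl2 and Os9, which select and extract misfolded proteins, had log2 fold changes of 0.04 to 0.12, and 4 of the 7 genes of this group were positive.

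Translocation genes had 9 of 10 values positive, and Sec61g was the member whose media did not overlap. Sec61g, the small gamma subunit of the Sec61 channel, had 120.1, 159 and 118 CPM in STAT3+ CM against 107, 106 and 102 CPM in STAT3- CM (log2 fold change 0.33, SE 0.14, 95% interval 0.02 to 0.64; by edgeR, adjusted p = 0.989). All 3 STAT3+ CM libraries lay above all 3 of STAT3- CM, replicate 2 farthest. Media did not overlap in 1 of 36 members and in 7.95% of all genes tested (3.78% with STAT3+ CM higher). Sec61b, the beta subunit, had 161, 187 and 127 CPM in STAT3+ CM against 148, 143 and 129 CPM in STAT3- CM (0.18, SE 0.15), with STAT3+ CM replicate 3 the lowest of all. Sec61a1, which encodes the pore itself, was the negative member, with 185, 186 and 175 CPM in STAT3+ CM against 215, 204 and 164 CPM in STAT3- CM (-0.09, SE 0.13). The subunits of 1 channel therefore had values on both sides of 0. Sec63, which recruits BiP to the channel, the translocon-associated genes Ssr1, Ssr2 and Ssr3 and the signal peptidase genes Spcs1, Spcs2 and Spcs3 had values of 0.03 to 0.24, with Spcs1 highest (0.24, SE 0.13).

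Transcript length moved with these values across genes. Spearman's rho between length and log2 fold change was -0.53 over the 36 members and -0.38 over 13970 genes with an annotated length, a description only, since the genes share the same 6 libraries. Of the 18 members shorter than 2.84 kb, 14 were positive, and of the 18 longer ones 11. Among all genes, 65.3% of those shorter than 2.84 kb were positive and 32.9% of the longer ones. Sec61g (1.86 kb), Spcs1 (0.702 kb), Sdf2l1 (1.11 kb) and Sec61b (0.564 kb) were short, and Atf6 (7.25 kb), Ern1 (6.95 kb) and Sel1l (6.30 kb) were long. The part of length in their values was not tested.

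A single library held the lowest values of most chaperone and isomerase members. In STAT3- CM replicate 3, 24 of 36 members had their lowest value of the 6 libraries, where 24.8% of all genes tested did. That included 7 of 8 lumenal chaperones and 7 of 7 lectin chaperones and isomerases, but 0 of 4 sensors, 3 of 7 degradation genes and 7 of 10 translocation genes. Relative to the mean of STAT3- CM replicates 1 and 2, replicate 3 had 0.581 times the Hspa5 CPM, 0.602 times that of Dnajb9, 0.653 times that of Manf and 0.661 times that of Pdia3 and of Creld2. The median of this ratio was 0.689 for the lumenal chaperones, 0.694 for the lectin chaperones and isomerases, 0.876 for the translocation genes, 0.896 for the degradation genes and 0.959 for the sensors, against 0.992 for all genes tested. Both groups of folding members thus had lower medians there than the other groups of members, while Ern1 (1.21), Edem1 and Os9 (1.12 each), Sec63 (1.06) and Spcs3 stood above 1. This comparison was made after the values had been seen, rests on 1 library and has no test. The highest value fell in STAT3+ CM replicate 2 for 15 of 36 members, where 19.6% of all genes did.

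**Figure D3:**
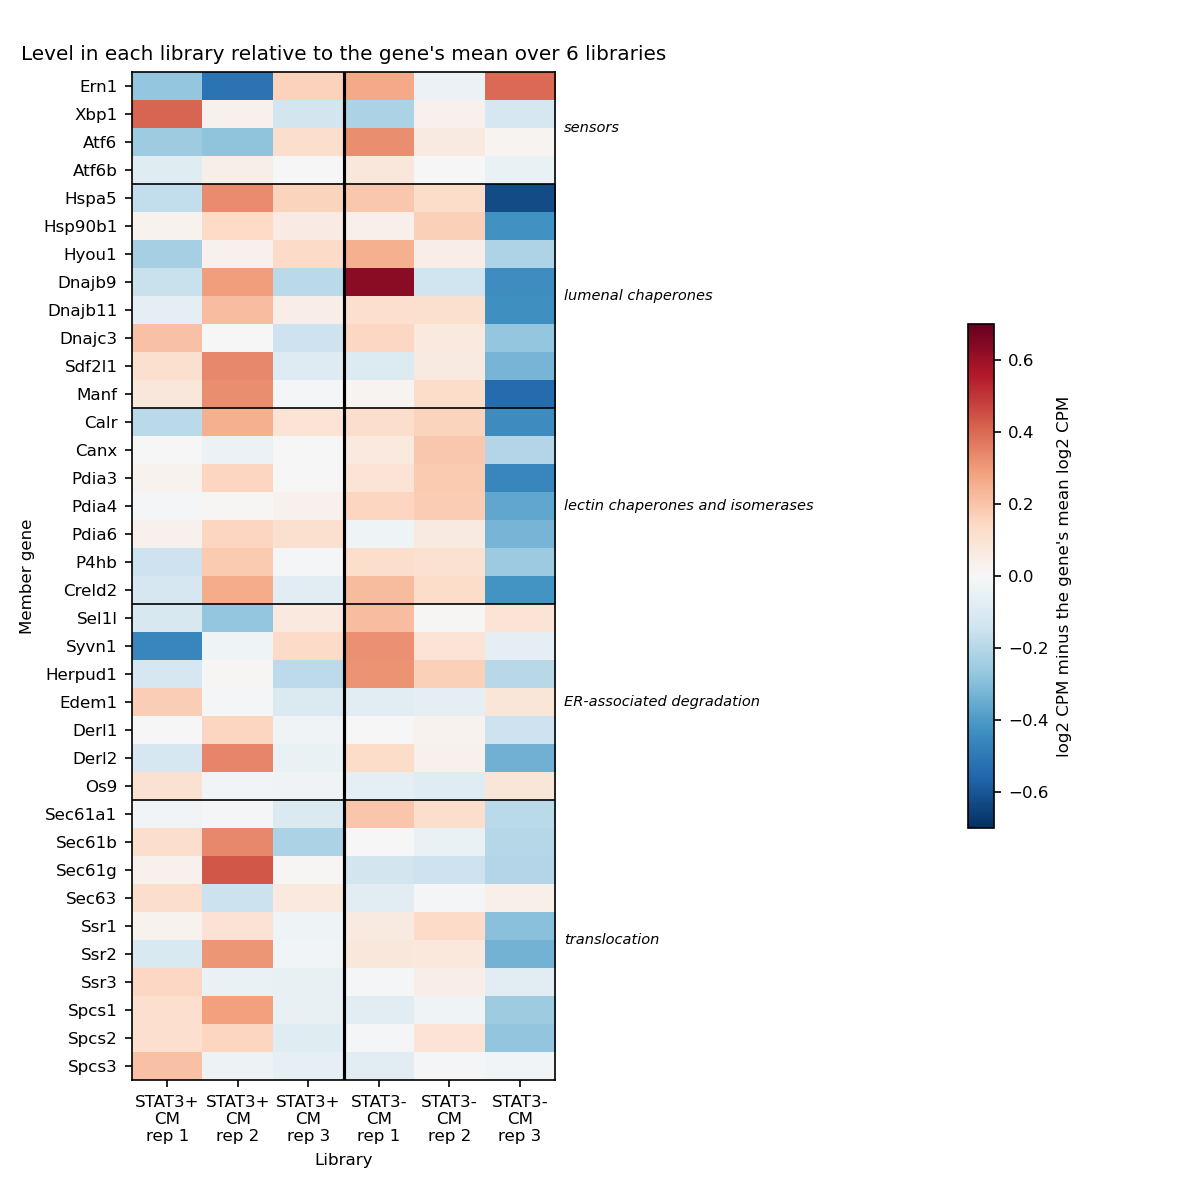
Log2 CPM of each member in each library minus that gene's mean over the 6 libraries, with the 3 STAT3+ CM libraries left of the 3 of STAT3- CM and genes grouped by role. The STAT3- CM replicate 3 column is blue for all lumenal chaperones and all lectin chaperones and isomerases, with a median of -0.43 and -0.36 on the log2 scale.

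Within the STAT3- CM group the folding genes had a larger spread than the median gene. The median SD of log2 CPM over the 3 libraries of a group was 0.183 in STAT3+ CM and 0.313 in STAT3- CM for the lumenal chaperones, and 0.0809 in STAT3+ CM and 0.305 in STAT3- CM for the lectin chaperones and isomerases. For all genes tested it was 0.216 in STAT3+ CM and 0.195 in STAT3- CM. In Hspa5 (969, 927 and 550.4 CPM in STAT3- CM) and Calr (958, 981 and 649.8 CPM) replicate 3 was the library that departed. The larger spread thus largely restates the low values of that library. In Dnajb9 (18.4, 10.8 and 8.79 CPM) replicate 1 stood apart instead. Members with an ERSE or ERSE-II in the window, shown above, had a median ratio of 0.716 in STAT3- CM replicate 3 and members with neither 0.882. Of the 10 with a motif 9 were lowest in that library, and of the 19 without, 11. Most of the 10 were chaperone or isomerase genes, so motif and role went together. Among chaperone and isomerase genes the ratios overlapped, from 0.581 (Hspa5) to 0.794 (Canx) with a motif and from 0.602 (Dnajb9) to 0.806 (Sdf2l1) with neither. For tested genes outside the 36, the median ratio was 1.403 for the 10 with an ERSE and 0.979 for the 8 with ERSE-II. These are medians of few genes in the same library, and the part of the motif in the ratios was not tested. With members included, it was 0.810 over the 18 tested genes with an ERSE, against 0.984 for those without. Over all 133 tested genes with any of the 3 motifs, members included, it was 0.959, against 0.984 for tested genes with none. Of the 133, however, 106 held TGACGTGG, which no member held. Pdia3 (0.661) and Dnajb9 (0.602) were as low with no match in their windows, which says only that those letters were not there.

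**Figure D4:**
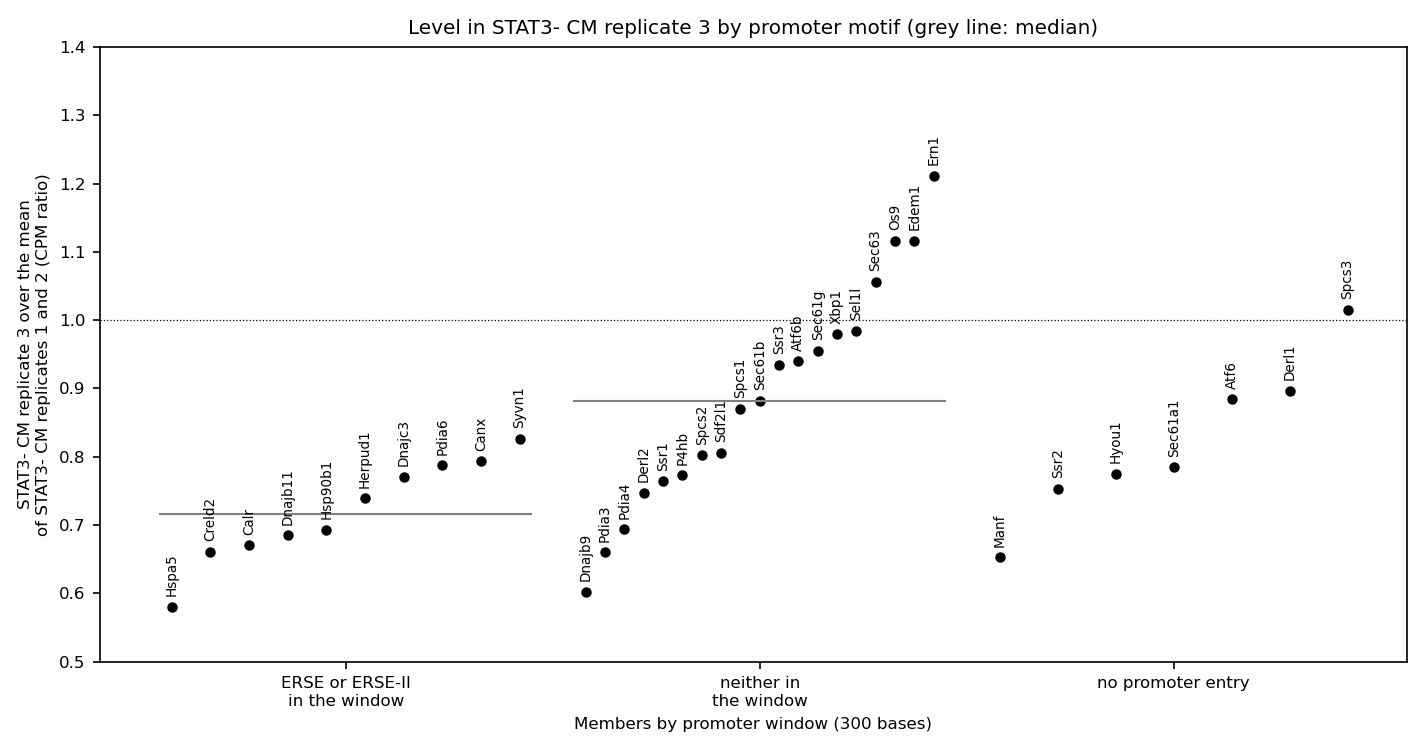
CPM in STAT3- CM replicate 3 divided by the mean CPM of STAT3- CM replicates 1 and 2, 1 point per member, for 10 members with an ERSE or ERSE-II in the 300-base promoter window, 19 with neither and 7 with no promoter entry. Grey lines mark medians of 0.716 and 0.882, and the dotted line marks a ratio of 1. Most of the 10 are chaperone or isomerase genes, and such genes overlap between the first 2 sets.

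The fit was repeated with each library left out in turn, and the one without STAT3- CM replicate 3 is given here because that library carried this pattern. In 29 of 36 members it was the lowest STAT3- CM library, so leaving it out lowers most fold changes by construction. The downward shift is therefore no separate result. The members' median log2 fold change was then -0.043, with 14 of 36 positive (51.1% of all genes tested), and 11 members turned negative that were positive with all libraries, Hspa5 (-0.04, SE 0.17), Hsp90b1 (-0.03, SE 0.13), Calr (-0.07, SE 0.16) and Pdia3 (-0.08, SE 0.13) among them. Again 0 of 36 passed, while 18 of 14408 genes did (0.125%). Herpud1 was the 1 member at an unadjusted p under 0.05 (6.51% of all genes), at -0.34 on the log2 scale (SE 0.13; edgeR adjusted p = 0.614). Media then did not overlap in 6 of 36 members (22.9% of all genes), with Canx, Pdia4, Herpud1 and Sec61a1 lower and Sec61g and Os9 higher in STAT3+ CM. Sec61g stood at 0.31 (SE 0.15; edgeR adjusted p = 0.822), and Xbp1 stood at 0.21 (SE 0.17). Other single libraries moved these values: Sec61g was 0.18 without STAT3+ CM replicate 2, and Xbp1 was 0.053 without STAT3+ CM replicate 1. Without STAT3+ CM replicate 3, 5 of 36 members had an unadjusted p under 0.05 (9.45% of all genes), and again 0 passed by edgeR.

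**Figure D5:**
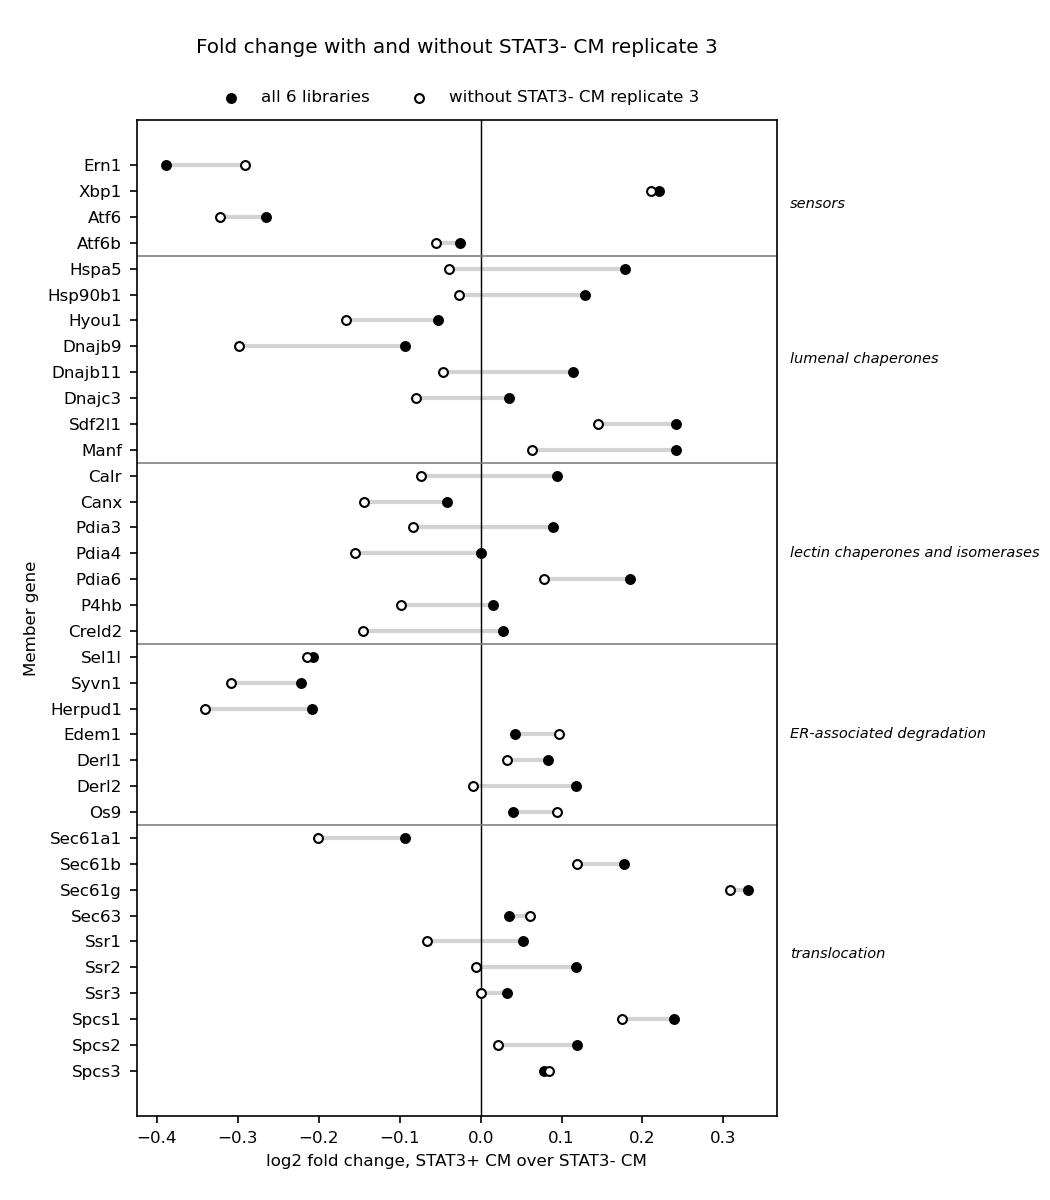
Log2 fold change of each member with all 6 libraries (filled points) and without STAT3- CM replicate 3 (open points). Values moved down in 31 of 36 members, among them all lumenal chaperones and all lectin chaperones and isomerases, and 11 crossed from positive to negative. The library left out was the one where most members were lowest, so a downward shift follows from that choice.

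The wider pathway was read from 7 lists of 89 related genes, of which 88 were tested. By edgeR 0 passed, as by DESeq2, with 46 positive and 42 negative. At an unadjusted p under 0.05 stood 3 of 88 (3.64% of all genes tested), and the media did not overlap in 5 of 88 (7.95% of all genes tested). In the PERK arm, which slows translation and induces amino acid and stress genes, 2 of 10 values were positive, with a median of -0.13. Trib3, a stress-induced pseudokinase, had 26.9, 26.8 and 15.9 CPM in STAT3+ CM against 37.9, 32.1 and 29.6 CPM in STAT3- CM (log2 ratio -0.52 with SE 0.20; adjusted p = 0.989 by edgeR's quasi-likelihood test), and the media did not overlap. Chac1, which degrades glutathione, had 9.85, 14.1 and 8.23 CPM in STAT3+ CM against 19.1, 13.2 and 13.4 CPM in STAT3- CM (-0.51, SE 0.23), with STAT3+ CM replicate 2 among the STAT3- CM libraries. Trib3 stood at -0.31 without STAT3+ CM replicate 3, and Chac1 at -0.32 without STAT3- CM replicate 1. Among 17 other folding genes 11 were positive (median 0.064), led by Fkbp11, a prolyl isomerase of secretory cells, with 5.35, 5.38 and 6.97 CPM in STAT3+ CM against 3.05, 3.15 and 4.79 CPM in STAT3- CM (0.70, SE 0.24; edgeR adjusted p = 0.989). All STAT3+ CM values of Fkbp11 lay above those of STAT3- CM, at a low level. Txndc12 (0.20) came next by p.

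Glycan processing had 6 of 13 positive (median -0.0048), with Uggt1, the folding sensor that re-glucosylates glycoproteins, at -0.17 (SE 0.11) and without overlap, and Ostc at 0.19. Other degradation genes had 7 of 15 positive (median -0.031), led by Ube2j2 (0.20) and Edem3 (-0.20). Other targeting and translocation genes had 12 of 15 positive (median 0.098), led by Srp9 (0.25) and Sec11a (0.21). The ER-to-Golgi COPII coat had 4 of 10 positive (median -0.034), led by Sar1b (0.18) and Sec31a (-0.20). Other activators had 4 of 8 positive (median 0.011), with Mbtps1, the protease that cuts ATF6, at -0.19 (SE 0.12) and without overlap, and Creb3l2 at -0.38, or -0.017 without STAT3- CM replicate 3. In STAT3- CM replicate 3, 40 of the 88 genes had their lowest value, against the 24.8% of all genes given above. These were 9 of 15 other targeting and translocation genes, 8 of 13 for glycan processing, 7 of 17 other folding genes, 7 of 15 other degradation genes, 4 of 8 other activators, 4 of 10 for COPII and 1 of 10 in the PERK arm, so low values there were not limited to folding genes.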

How the data were processed

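The authors deposited a table of unnormalized read counts by gene for the 6 libraries, 3 of each medium. Per the labels' protocols, 500 ng of RNA (quality 9.0 to 9.8) entered a directional polyA preparation. The submitters' processing notes name GRCm39 and, among tools, TopHat2 2.0.10, Cufflinks 2.2.1, Bowtie 1.0.0, SAMtools 0.1.19 and FastQC. How reads were counted (program, annotation, strand) is not given in the sources used here; overlapping genes are less certain. No gene total lay under 40, by a filter that is not stated.

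filterByExpr kept 14319 of 14481 genes, and counts were scaled by TMM. The media were compared with edgeR 4.0.16 in R 4.3.3 (glmQLFit and glmQLFTest, robust, two-sided), with Benjamini-Hochberg adjustment over all genes tested at a threshold of 0.05. SEs were derived as the size of the log2 fold change divided by the root of the F statistic. Alternatives were DESeq2 1.42.0, limma-voom (limma 3.58.1), other scalings, filters and designs, and each library left out. The workflow was tested on simulated data. Log2 CPM used a prior count of 2. Transcript length is that of the longest principal isoform in GENCODE M21 (GRCm38), and promoter windows are RefSeq's; in 26 of 29 genes the window's end shared 20 bases with the start of an annotated transcript on the gene's strand. Members with values in every library were a panel of 20 genes and any other with an unadjusted p under 0.05 or no overlap (Sec61g). From each related list the 2 genes with the smallest p were named. The members and lists were chosen with earlier results of these data known. Intervals and p-values reflect 3 libraries per medium.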

Additional observations from a re-analysis of the deposited data

How the results depend on the processing

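Members past the threshold stayed at 0 of 36 in each of 16 alternatives. Over all genes DESeq2 called 48, and the fit without both outlying libraries, an alternative chosen after seeing the data, called 10; with 1 library left out the count ran from 0 to 18 (18 without STAT3- CM replicate 3, 1 without STAT3- CM replicate 1). Members without overlap numbered 2 under upper-quartile scaling, 2 with library totals only, 9 without both outlying libraries and 1 to 8 with 1 library left out, where fewer libraries leave more genes without overlap. Without STAT3- CM replicate 3 they numbered 6 of 36, against 22.9% of all genes. For the other alternatives the share over all genes is not given here, so those counts are not read as a result about the members. Members with positive values numbered 16 without both outlying libraries and 14 to 29 with 1 library left out; their median ran from -0.043 to 0.11 there. Of 336 values of 21 named members under the alternatives, 30 changed sign, all of members with no call, and the lowest adjusted p was 0.495 (edgeR). Pdia4, just under 0 in the fit reported, stood at 0.0047 (RLE scaling, and DESeq2), 0.016 (upper quartile), 0.020 (limma-voom) and 0.020 (replicate block). P4hb (-0.024) and Creld2 (-0.011) turned with library totals only, and Hsp90b1 (-0.0019), Pdia3 (-0.068), P4hb (-0.025) and Creld2 (-0.075) without both outlying libraries. With 1 library left out, values ran from -0.039 to 0.32 for Hspa5, -0.027 to 0.25 for Hsp90b1, -0.17 to 0.065 for Hyou1, -0.30 to 0.28 for Dnajb9, -0.074 to 0.21 for Calr, -0.14 to 0.044 for Canx, -0.084 to 0.21 for Pdia3, -0.16 to 0.090 for Pdia4, -0.098 to 0.089 for P4hb, -0.15 to 0.15 for Creld2 and -0.055 to 0.010 for Atf6b. Members that kept their sign ran from -0.61 to -0.25 for Ern1, -0.41 to -0.17 for Atf6, 0.053 to 0.33 for Xbp1, 0.063 to 0.37 for Manf, 0.12 to 0.34 for Sdf2l1, 0.079 to 0.26 for Pdia6, -0.34 to -0.096 for Herpud1, -0.20 to -0.016 for Sec61a1, 0.042 to 0.31 for Sec61b and 0.18 to 0.41 for Sec61g. The cause was not tested. Libraries of equal replicate number had an r across genes of -0.26, 0.28 and 0.18. No r for unequal numbers was computed, so these values cannot show whether the libraries were paired. The replicate block gave 0 members past the threshold and a median of 0.054. With 3 libraries per medium, members had SEs of 0.11 to 0.27. Differences larger than their SE also went uncalled after adjustment over all genes: Sec61g, at 0.33 with SE 0.14, had an edgeR adjusted p of 0.989.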
